A study of Mus musculus with 40 samples.

Results

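The Janus kinases (JAK) and the signal transducers and activators of transcription (STAT) were followed in hearts of mice that express interleukin 11 in cardiomyocytes. The members were chosen by name: *Jak1*, *Jak2*, *Jak3*, *Tyk2*, *Stat2*, *Stat3*, *Stat5a*, *Stat5b* and *Stat6*. All 9 were listed in both deposited tables, among 17646 genes in males and 17223 in females, and all 9 passed the filter on low values in both sexes. RNA-seq was carried out on hearts of CM-Il11-Tg mice, which carry the α-MHC-MerCreMer transgene (MCM) and 1 *Rosa26-Il11* allele. The labels name the tissue as heart, and the paper names it as left ventricle. The α-MHC promoter drives the tamoxifen-activated Cre in cardiomyocytes. Transgenic hearts were taken 1, 3 or 6 weeks after tamoxifen (20 mg/kg on 5 consecutive days from 8 weeks of age). Littermate controls had the MCM transgene and tamoxifen but no *Il11* allele, and uninduced CM-Il11-Tg hearts received no tamoxifen, so MCM was common to all groups. The labels mark both the control and the uninduced libraries as Baseline, so the controls are not labelled with the week of the group they are compared with. The parental lines were C57BL/6N and C57BL/6J. There were 4 libraries in each group of each sex, except 3 male controls and 3 males at 6 weeks, because 2 male libraries with conflicting labels were left out.

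JAKs are tyrosine kinases bound to the inner part of cytokine receptors that lack a kinase of their own. When a cytokine brings receptor chains together, the JAKs phosphorylate one another and the receptor, STAT proteins dock there, are phosphorylated, pair up and enter the nucleus to bind DNA. Interleukin 11 binds the receptor encoded by *Il11ra1* and signals through the shared chain gp130 (*Il6st*), with STAT3 as its best known STAT. The deposited RNA-seq does not measure phosphorylation, so every value below is a transcript level or a change in one.

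Male libraries held 16663513 to 65333832 reads on listed genes, and female libraries 19147947 to 30929192. Cardiomyocyte markers summed to 23850 CPM or more in every library. *Il11* checked the labels. It did not exceed 0.166 CPM in any control, ran from 15.5 to 49.1 CPM in uninduced hearts and from 328 to 819 CPM at 1, 3 and 6 weeks. In females 5 libraries stood apart with a low summed level of 4 nuclear noncoding RNAs (*Malat1*, *Neat1*, *Meg3* and *Kcnq1ot1*), between 341 and 560 CPM, against 1176 to 2741 CPM in the other female libraries. They were uninduced replicate 4, 1-week replicate 2 and 6-week replicates 2, 3 and 4. In males, 6-week replicate 4 had the lowest such level (1076 CPM) and a summed level of 5 liver markers of 53.4 CPM, against 1.29 to 3.26 CPM in male controls, although 7 other libraries of either sex had 17.6 to 90.2 CPM. Atrial markers, at 3.14 CPM or less elsewhere, summed to 729 CPM in female 6-week replicate 2 and 119 CPM in female 1-week replicate 2. For the main results that these libraries change, the value without them is given as well, and leaving them out was chosen after the data had been seen.

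The promoters of the 4 members that changed in more than 1 comparison are shown because STAT proteins themselves bind DNA with a known preference. Each sequence runs 5′ to 3′ on the gene's own strand, from 250 bases before to 50 bases after the start of the canonical transcript (GENCODE, genome build GRCm39, as in the deposited data). Capitals mark TTCNNNGAA, the usual spacing of a STAT site, TTC and GAA set 4 bases apart, the wider spacing preferred by STAT6, or TGACGTCA, the cyclic AMP response element.
Stat3, chr11:100830378-100830677, minus strand: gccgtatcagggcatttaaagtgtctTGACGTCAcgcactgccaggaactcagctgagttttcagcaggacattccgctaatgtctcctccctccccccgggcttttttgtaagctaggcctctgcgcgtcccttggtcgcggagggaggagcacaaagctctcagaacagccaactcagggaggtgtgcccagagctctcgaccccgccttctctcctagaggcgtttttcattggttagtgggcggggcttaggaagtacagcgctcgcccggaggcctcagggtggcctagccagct
Stat5b, chr11:100741534-100741833, minus strand: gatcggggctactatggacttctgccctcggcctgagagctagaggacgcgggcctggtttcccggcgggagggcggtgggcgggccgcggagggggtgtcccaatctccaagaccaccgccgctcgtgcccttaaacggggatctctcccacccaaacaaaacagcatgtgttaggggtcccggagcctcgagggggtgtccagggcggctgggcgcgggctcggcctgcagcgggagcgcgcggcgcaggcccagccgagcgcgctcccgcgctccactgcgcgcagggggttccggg
Jak2, chr19:29228427-29228726, plus strand: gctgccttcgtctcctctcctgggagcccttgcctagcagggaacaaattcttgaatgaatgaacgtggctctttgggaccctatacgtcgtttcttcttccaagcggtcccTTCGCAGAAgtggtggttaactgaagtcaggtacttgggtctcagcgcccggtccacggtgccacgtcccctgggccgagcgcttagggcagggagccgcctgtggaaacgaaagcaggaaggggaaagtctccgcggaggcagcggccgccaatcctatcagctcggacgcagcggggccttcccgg
Jak3, chr8:72128442-72128741, plus strand: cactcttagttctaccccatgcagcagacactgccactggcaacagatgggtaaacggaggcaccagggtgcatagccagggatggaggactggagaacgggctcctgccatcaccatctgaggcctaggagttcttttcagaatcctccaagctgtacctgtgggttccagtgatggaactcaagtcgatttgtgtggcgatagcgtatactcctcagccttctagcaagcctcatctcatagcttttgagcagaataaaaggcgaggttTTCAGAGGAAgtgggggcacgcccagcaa

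TTCNNNGAA lay in the *Jak2* promoter alone among the 9 members, from 138 bases before the start, and in 7.615% of 13762 promoters. These are promoters of listed protein-coding genes, tested or not, with a single chromosome that holds no member left out. The wider spacing lay in *Jak3*, *Stat2* and *Stat5a* (5.886% of promoters) and TGACGTCA in *Stat3* and *Jak1* (3.001% of promoters). GGGCGG, the GC box, lay in 5 members, 3 times in *Stat5b* alone, and in 55.559% of promoters. A pair of GAAA set 2 bases apart, the core of the interferon-stimulated response element, lay in *Stat2* alone (3.728% of promoters), next to its wider STAT spacing and not overlapping it. Both strands were searched, and a match of letters is not a measured site.

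The members' places in the genome bear on how their reads can be told apart. *Stat5b*, *Stat5a* and *Stat3* follow one another on chromosome 11 with no listed gene between them. *Stat5a* and *Stat3* lie on opposite strands and share 142 exon bases at their ends. *Stat5a* and *Stat5b* are near-identical copies over part of their length: 13.1% of the 60-base windows of the *Stat5a* transcript, the length of a read, also occur in *Stat5b*, and 10.1% of those of *Stat5b* in *Stat5a*. *Jak3* (chr8:72123007-72143225) shares 629 exon bases with *Insl3* on the same strand and 1047 with *B3gnt3* on the other. *Jak1* shares 1950 with *Raver2* on the other strand. The library kit kept strand, but the strand setting of the counting was not given in the sources used here, so reads in those stretches may have been counted on either gene or on neither.

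Levels can be compared between genes only per length, here as CPM per kilobase of the union of a gene's exons. This union exceeds the canonical transcript by unequal amounts. It is 8255 bases against 3899 windows of 60 bases in *Stat5a*, and 6333 against 5439 in *Jak2*. The order of the members and the size of each share therefore depend on the length used. In control hearts *Stat3* was highest, at 13.6 ± 2.48 (SD, n = 3) in males and 11.9 ± 1.37 (SD, n = 4) in females, beside *Jak1* at 13.3 ± 2.01 and 10.6 ± 1.37, and this pair did not differ beyond its spread. *Stat5b* (10.2 ± 1.07 and 8.31 ± 0.528) and *Stat6* (9.72 ± 0.346 and 8.78 ± 0.788) came next and likewise did not differ beyond their spread. *Stat2* (5.37 ± 1.12 and 4.30 ± 0.57), *Jak2* (4.16 ± 0.197 and 3.59 ± 0.417) and *Jak3* (3.92 ± 0.304 and 4.22 ± 0.414) formed a lower tier. *Stat5a* (3.19 ± 0.216 and 2.85 ± 0.314) lay under them and *Tyk2* (2.15 ± 0.215 and 1.90 ± 0.147) was lowest in both sexes. *Stat3* stayed highest and the gap under it widened: at 6 weeks it stood at 25.7 ± 4.15 in males and 22.3 ± 1.08 in females. The next member in females was still *Jak1* (11.7 ± 1.70). In males *Stat6* (10.7 ± 2.87) and *Jak1* (10.5 ± 0.985) followed without differing beyond their spread, and without replicate 4, which stands apart, *Jak1* (10.7 and 11.4) lay above *Stat6* (9.34 and 8.76) in both libraries.

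The make-up of each family moved with these levels. *Stat3* made up 32.2% ± 4.76 (SD, n = 3) of the summed per-kilobase level of the 5 STAT genes in male controls and 49.6% ± 1.82 (SD, n = 3) at 6 weeks. In females its share was 32.9% ± 1.01 (SD, n = 4) in controls and 50.5% ± 2.19 at 6 weeks. The share of *Stat5b* went from 24.2% to 15.4% in males and from 23.1% to 15.7% in females, with no overlap between the control and 6-week libraries in either sex. Among the JAK genes, *Jak1* held 56.3% ± 3.66 in male controls and 40.2% ± 5.43 at 6 weeks, while *Jak3* held 16.8% ± 2.50 and 33.8% ± 8.88. In females the *Jak3* share was 20.9% ± 3.01 in controls, 27.2% ± 1.09 at 3 weeks and 17.7% ± 5.70 at 6 weeks. The only 6-week female library that does not stand apart had a *Jak3* share of 25.97%, above the controls, and without replicate 4 the male 6-week shares ranged from 26.1% to 31.8% for *Jak3* and from 41.1% to 45.1% for *Jak1*. The *Stat3* share without these libraries was 47.5% in the 1 female and 48.5% to 51.7% in the 2 males. Shares within a family add to the whole, so a rise in 1 member lowers the others, and no test was run on them.

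**Figure D1:**
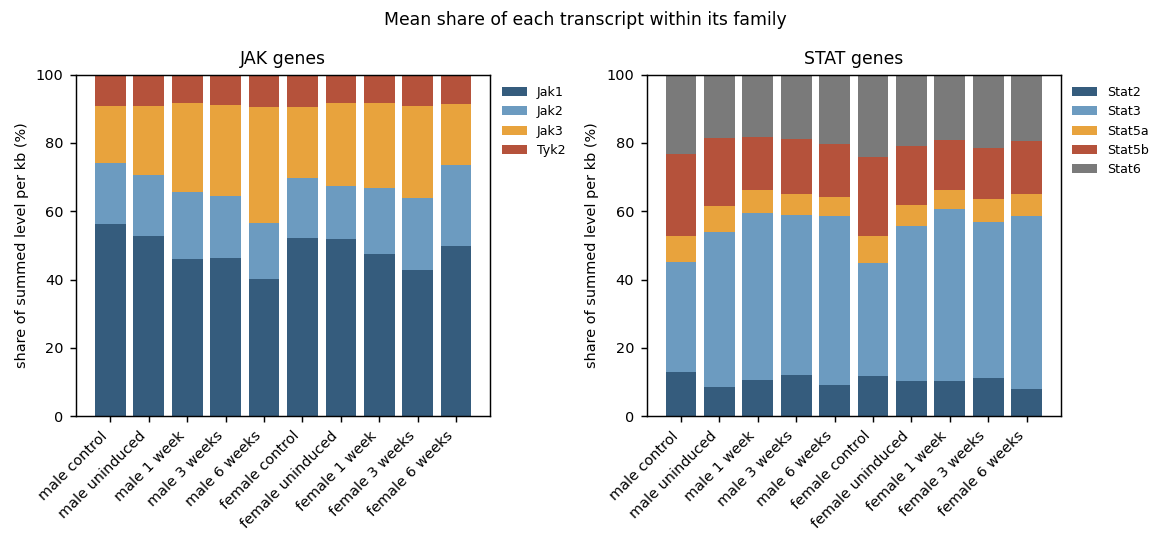
Mean share of each transcript in the summed level per kilobase of exon of its family (%), for the 4 JAK genes (left) and the 5 STAT genes (right), with 1 bar for each group of 3 or 4 libraries. The *Stat3* segment is 32.2% in male controls and 49.6% in males at 6 weeks, and the *Jak3* segment is 16.8% and 33.8%.

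Differential expression was tested with limma on log2(CPM + 0.5), over 16931 genes in males and 16956 in females, and a gene was called at an adjusted p under 0.05. Fold changes on this scale are slightly understated. In males 2 members rose and 1 fell at 1 week, 2 rose and 0 fell at 3 weeks, and 2 rose and 1 fell at 6 weeks. The share of all tested genes called higher was 18.9%, 13.2% and 16.2% at 1, 3 and 6 weeks, and the share called lower was 14.6%, 8.1% and 10.9%. In females 2 members rose and 1 fell at each of 1, 3 and 6 weeks, against 15.3%, 16.8% and 21.7% of all genes called higher and 13.1%, 14.5% and 21% called lower. With 9 members, these shares amount to about 1 or 2 genes in each direction, so the number of members called was near the background. All comparisons with control within a sex share the same control libraries. Where groups are said not to overlap, this describes the values, and the share of all genes without overlap was not counted. The members that moved were few: *Stat3* rose in all 6 comparisons, *Jak3* in the 3 male ones, *Jak2* in the 3 female ones, and *Stat5b* fell in 4. The median log2 change over all genes was between -0.02 and 0.02 in these 6 comparisons.

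**Figure D2:**
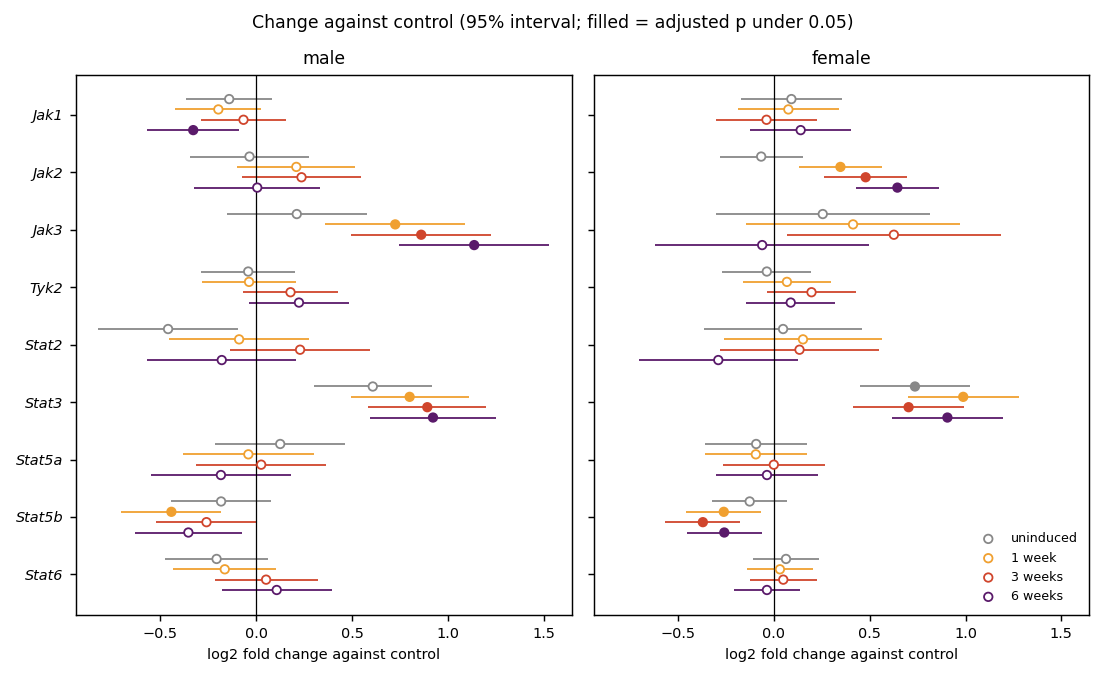
Log2 fold change against control of each member in males (left) and females (right), with 95% intervals from the limma fit and 1 colour for each of the uninduced, 1-week, 3-week and 6-week groups. Filled points, with an adjusted p under 0.05, are those of *Stat3* in both sexes, *Jak3* in males, *Jak2* in females, *Stat5b* at 4 points and *Jak1* in males at 6 weeks.

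*Stat3*, the transducer of gp130 cytokines, had the most regular rise. In male controls its level was 115, 132 and 164 CPM, in the 4 males at 1 week 236, 196, 228 and 296 CPM, at 3 weeks 275, 219, 276 and 244 CPM, and at 6 weeks 266, 215 and 298 CPM. All 11 induced male libraries lay above all male controls. In female controls it was 104, 122, 138 and 118 CPM, at 1 week 205, 242, 271 and 241 CPM, at 3 weeks 228, 169, 194 and 196 CPM, and at 6 weeks 209, 227, 234 and 230 CPM. The 12 induced female libraries likewise did not overlap the controls. The log2 fold change in males was 0.80 ± 0.15 (SE; limma, adjusted p = 0.00038) at 1 week, 0.89 ± 0.15 (adjusted p = 0.000159) at 3 weeks and 0.92 ± 0.16 (adjusted p = 0.000202) at 6 weeks. In females it was 0.99 ± 0.14 (limma, adjusted p = 1.54e-05), 0.70 ± 0.14 (adjusted p = 0.000571) and 0.91 ± 0.14 (adjusted p = 2.77e-05). These are rises of 1.63- to 1.98-fold, and none was lost when any 1 library was left out.

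*Stat3* was also higher than control in transgenic hearts without tamoxifen. Uninduced hearts differ from controls in both tamoxifen and the *Il11* allele, and the parts of these cannot be told apart. Induced and uninduced hearts in turn differ in tamoxifen as well as in *Il11* level. Uninduced males had 223, 204, 193 and 209 CPM and uninduced females 153, 183, 275 and 208 CPM, all above the controls of their sex. The change against control was called in females (0.74 ± 0.14, limma, adjusted p = 0.00392), where 2.87% of all genes were called in either direction. It was the only member called there. In males it did not pass (0.61 ± 0.15, adjusted p = 0.0714), where 0.597% of genes were called and 0 of the 9 members. At an unadjusted p under 0.05 there were 2 members in males, *Stat3* and *Stat2*, among 1789 of all 16931 genes tested. Induced hearts did not differ in *Stat3* from uninduced hearts by the test at any week (log2 differences between -0.03 and 0.31, limma, adjusted p between 0.141 and 0.913), and the widest 95% interval end was 0.62.

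*Stat5b* and *Stat5a*, the transducers of growth hormone, prolactin and several interleukins, adjoin *Stat3* on the chromosome, and the first of them fell. *Stat5b* was 64.6, 78.7 and 68.1 CPM in male controls, 48.4, 48.6, 45 and 66.6 CPM at 1 week, 63.4, 52.4, 60.5 and 58.6 CPM at 3 weeks, and 54.5, 49.4 and 61.2 CPM at 6 weeks. The 3-week and 6-week males lay under all controls, and at 1 week replicate 4 lay within the control range. In females it was 57.0, 60.2, 60.3 and 52.5 CPM in controls, 44.8, 49.1, 49.6 and 47.9 CPM at 1 week, 48.7, 42.7, 41.6 and 44.6 CPM at 3 weeks, and 45.4, 47, 47.5 and 52.0 CPM at 6 weeks. Every induced female library lay under every control, the closest pair being 52.0 and 52.5 CPM.

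The fall of *Stat5b* was called in males at 1 week, by 0.44 ± 0.12 on the log2 scale (limma, adjusted p = 0.0102). The log2 change in males was -0.26 ± 0.12 (adjusted p = 0.157) at 3 weeks and -0.35 ± 0.13 (adjusted p = 0.0558) at 6 weeks, neither of them called. In females it fell by 0.26 ± 0.09 (limma, adjusted p = 0.042), 0.37 ± 0.09 (adjusted p = 0.00479) and 0.26 ± 0.09 (adjusted p = 0.0319) at 1, 3 and 6 weeks. The fall is relative to the median gene: with values scaled to total reads the median of all genes shifts by 0.16 to 0.34 in the weekly comparisons, and the change in *Stat5b* is then 0.083, -0.02 and 0.14 in females in order of weeks, and -0.09 in males at 1 week, none of them called. With the nuclear RNA level as a covariate the male 1-week change was -0.24 (limma, adjusted p = 0.135). Without the libraries that stand apart the change was -0.43 (adjusted p = 0.0282) in males at 6 weeks and -0.34 (adjusted p = 0.0855) in females at 6 weeks. Leaving out single libraries ended the call in males at 1 week without control replicate 3, and in females at 1 week and at 6 weeks in most cases. *Stat5a* was not called in any comparison with control. Its level ran from 17.7 to 33.5 CPM in males and from 17.5 to 25.9 CPM in females, and its log2 changes at the 3 weeks lay between -0.18 and 0.03.

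**Figure D3:**
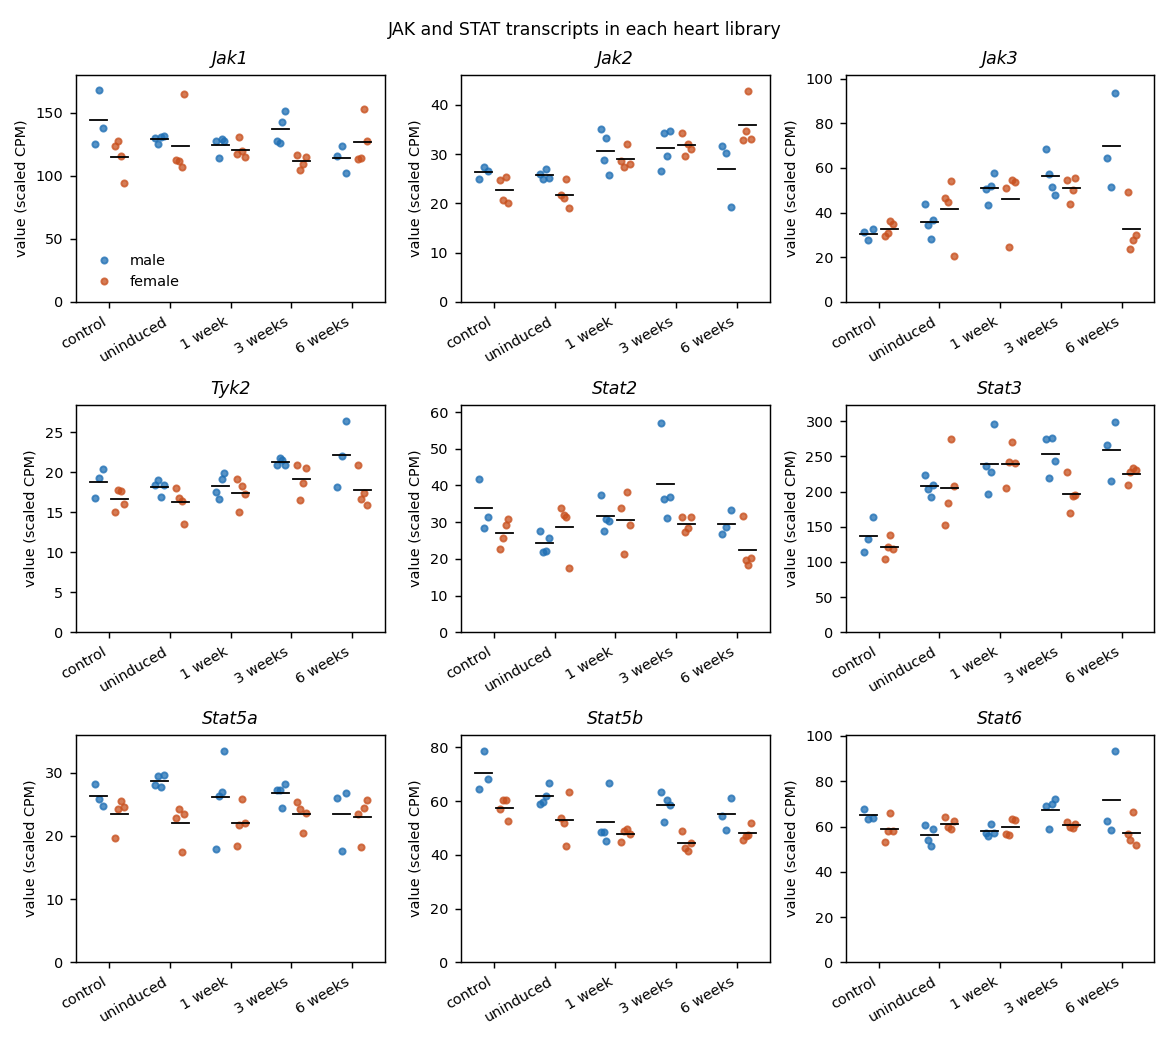
Level of each member (scaled CPM, linear axis from 0) in each library of the 5 groups, with males in blue and females in orange and a black bar at the group mean. *Stat3* lies above the controls in every transgenic library, and *Jak3* has a female group at 6 weeks in which 1 library is at 49.3 and the others lie between 23.8 and 29.9.

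*Jak3*, the kinase paired with the common gamma chain and found mainly in leukocytes, rose in males. It stood at 31.2, 27.9 and 32.4 CPM in controls, 50.3, 43.6, 52.0 and 57.7 CPM at 1 week, 68.4, 57.2, 51.6 and 47.7 CPM at 3 weeks, and 64.3, 51.4 and 93.3 CPM at 6 weeks. No induced male library overlapped the controls. The log2 fold change was 0.73 ± 0.17 (SE; limma, adjusted p = 0.00351), 0.86 ± 0.17 (adjusted p = 0.00123) and 1.14 ± 0.19 (adjusted p = 0.000138) at 1, 3 and 6 weeks. The value of 93.3 CPM belongs to replicate 4, the male library that stood apart, without which the 6-week change was 0.91 (adjusted p = 0.000746). *Jak3* in males also exceeded the uninduced group at each week, by 0.51 (adjusted p = 0.0319), 0.65 (adjusted p = 0.00877) and 0.93 (adjusted p = 0.000836), and uninduced males (43.9, 34.2, 28.2 and 36.7 CPM) overlapped the controls.

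In females the result for *Jak3* depended on which libraries were kept. Controls had 29.3, 31.0, 36.1 and 35.1 CPM, 1-week hearts 51.1, 24.5, 54.4 and 53.7 CPM, 3-week hearts 54.6, 44.0, 50.1 and 55.4 CPM, and 6-week hearts 49.3, 23.8, 27.6 and 29.9 CPM. Uninduced females had 46.3, 44.8, 54.3 and 20.8 CPM. The 5 low values are those of the 5 female libraries with little nuclear RNA, and the other 11 transgenic female libraries all lay above the controls. With all libraries the log2 change was 0.41 ± 0.27 (limma, adjusted p = 0.268), 0.63 ± 0.27 (adjusted p = 0.0815) and -0.06 ± 0.27 (adjusted p = 0.87) at 1, 3 and 6 weeks, none called. Without the 5 libraries it was 0.69 (adjusted p = 9.91e-05), 0.63 (adjusted p = 8.01e-05) and 0.58 (adjusted p = 0.011), the last from 1 library at 6 weeks, whose spread is assumed to be that of the other groups. In uninduced females the change was 0.25 (adjusted p = 0.701) with all libraries and 0.55 (adjusted p = 0.00557) without the 5. With the nuclear RNA level as a covariate the values were 0.64 (adjusted p = 0.00018), 0.54 (adjusted p = 0.000651) and 0.49 (adjusted p = 0.00339). Both alternatives were chosen after the libraries had been seen. Most female 6-week libraries are among the 5, so low nuclear RNA and the 6-week group cannot be fully told apart. *Insl3*, which shares exon bases with *Jak3*, held 0.324 to 0.843 CPM in the 5 libraries and 1.39 to 2.98 CPM in the other female libraries.

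Markers of blood cells moved with *Jak3* in males. All 4 pan-leukocyte markers and all 6 macrophage markers rose at each week in both sexes, with summed leukocyte levels of 44.2 to 71.3 CPM in male controls and 102 to 218 CPM in induced males. In females these levels were 41.6 to 53.9 CPM and 143 to 235 CPM, and the 5 libraries with little nuclear RNA held 80.1 (uninduced), 181 (1 week) and 232, 235 and 168 CPM (6 weeks). In uninduced females, too, all 4 and all 6 rose, with 80.1 to 99.2 CPM, where 2.41% of all genes were called higher. *Cd4*, on T cells and some macrophages, rose at each week in both sexes. *Cd3d* and *Cd3e* were not tested in males. Of the other T cell markers *Cd3e* rose in females at 3 and 6 weeks and *Trac* at 6 weeks, and none of the B cell markers was called. The part of these cells in the result was not tested, and in bulk hearts fewer or more cells of a type cannot be told apart from less or more RNA per cell. *B3gnt3*, whose exons overlap *Jak3* on the other strand, had 10.6 to 16.2 CPM in male controls and 19.0 to 40.6 CPM in induced males.

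**Figure D4:**
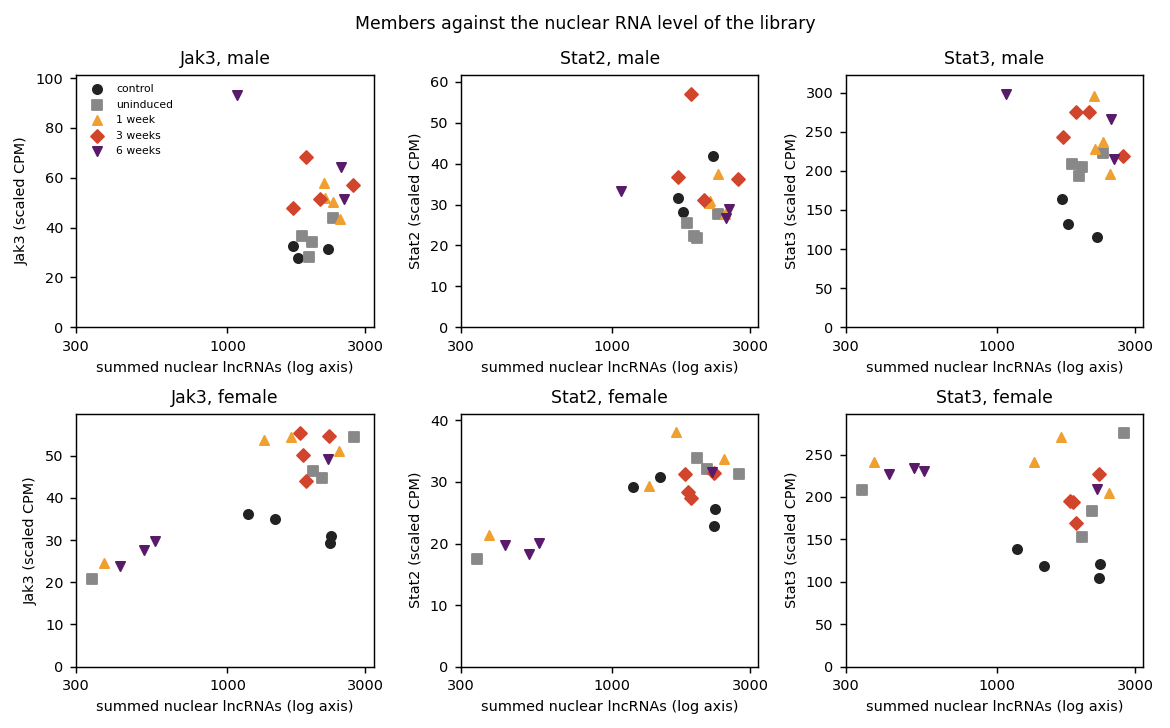
Level of *Jak3*, *Stat2* and *Stat3* (scaled CPM) in each library against the summed level of 4 nuclear noncoding RNAs (CPM, log axis), in males (top) and females (bottom), with a symbol for each group. The 5 female libraries at 341 to 560 on the horizontal axis have *Jak3* values of 20.8 to 29.9 and the 5 lowest *Stat2* values among female libraries, while their *Stat3* values lie between 208 and 242.

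*Jak2*, a kinase of gp130 and of the growth hormone and erythropoietin receptors, rose in females. It was 24.8, 20.8, 25.3 and 20.2 CPM in female controls, 28.5, 27.3, 32.1 and 28 CPM at 1 week, 34.3, 29.6, 32.1 and 31.1 CPM at 3 weeks, and 32.9, 34.8, 42.8 and 33 CPM at 6 weeks. The 12 induced female libraries all lay above the controls. The log2 change was 0.35 ± 0.10 (limma, adjusted p = 0.0158), 0.48 ± 0.10 (adjusted p = 0.00138) and 0.64 ± 0.10 (adjusted p = 4.98e-05). Uninduced females, at 21.7, 21.1, 24.9 and 19.1 CPM, were within or just under the control range, and the induced groups exceeded them by 0.41 (adjusted p = 0.0107), 0.54 (adjusted p = 0.000811) and 0.71 (adjusted p = 3.24e-05). The 1-week call was lost without control replicate 2, control replicate 4 or 1-week replicate 3.

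In males *Jak2* was 25, 27.5 and 26.6 CPM in controls, 35.0, 28.9, 33.2 and 25.8 CPM at 1 week, 26.6, 34.2, 29.5 and 34.8 CPM at 3 weeks, and 31.6, 30.2 and 19.4 CPM at 6 weeks. The groups overlapped at each week, and the low value of 19.4 CPM is that of the replicate 4 library. The log2 changes were 0.21, 0.24 and 0.01 (limma, adjusted p = 0.292, 0.289 and 0.984), with a 95% interval at 6 weeks of -0.32 to 0.33. Without that library the 6-week change was 0.22 (adjusted p = 0.226).

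*Jak1*, the kinase that serves gp130 and most other cytokine receptors, fell in males at 6 weeks, by 0.33 ± 0.11 on the log2 scale (limma, adjusted p = 0.0391). Its values were 126, 168 and 138 CPM in controls and 116, 124 and 103 CPM at 6 weeks, which did not overlap. The call was lost without any 1 of control replicates 3 and 4 and 6-week replicates 1 and 4, and without the last the change was -0.26 (adjusted p = 0.113). With values scaled to total reads the male 6-week change was -0.14 (limma, adjusted p = 0.572). In females *Jak1* was not called, with log2 changes of 0.08, -0.04 and 0.14. *Raver2*, which shares exon bases with *Jak1*, stood at 4.90 to 5.34 CPM in male controls and 2.79 to 4.97 CPM at 6 weeks. *Tyk2*, the kinase of the type I interferon and interleukin 12 receptors, was not called in any comparison. Its 4 male libraries at 3 weeks (20.9 to 21.9 CPM) lay above the 3 controls (16.8 to 20.4 CPM), with a log2 change of 0.18 ± 0.12 (adjusted p = 0.32).

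*Stat2*, a transducer of the interferon response, was not called against control in either sex. In males it exceeded the uninduced group at 3 weeks by 0.69 ± 0.16 (limma, adjusted p = 0.00546), with values of 57.1, 36.2, 31.2 and 36.8 CPM against 27.6, 21.8, 22.2 and 25.6 CPM. The controls, at 41.9, 28.3 and 31.5 CPM, overlapped the 3-week group. In females the 5 libraries with little nuclear RNA held the 5 lowest *Stat2* values, 17.6 to 21.4 CPM. Without them the change at 1 week was 0.31 (adjusted p = 0.0437), against 0.15 (adjusted p = 0.612) with them. At 6 weeks it was 0.23 (adjusted p = 0.35) without them and -0.29 (adjusted p = 0.248) with them, and in uninduced females 0.26 (adjusted p = 0.167) and 0.05 (adjusted p = 0.94). *Stat6*, the transducer of interleukins 4 and 13, was the steadiest member in females, where the highest of 20 libraries was 1.28 times the lowest. Its log2 changes at the 3 weeks lay between -0.16 and 0.11 in both sexes, none called. The upper end is that of males at 6 weeks, where replicate 4 had 93.6 CPM against 62.5 and 58.6 CPM, and without it the change was -0.10 (limma, adjusted p = 0.509). In males the uninduced (51.3 to 60.9 CPM) and 1-week (56.0 to 61.3 CPM) values lay under all controls (63.4 to 67.6 CPM), with changes of -0.21 and -0.16 (limma, adjusted p = 0.608 and 0.346).

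The members called against the uninduced group numbered 1, 2 and 1 in males at 1, 3 and 6 weeks and 1 at each week in females. Of all tested genes, 18.8%, 16.1% and 20.4% were called there in males and 12.6%, 16.7% and 22.8% in females. Between weeks, 0 of the 9 members were called in either sex by limma or by edgeR on recovered reads, and 0 to 3 members had an unadjusted p under 0.05. Between weeks few genes were called at all: 0.0177% for 3 weeks against 1 week, 0.165% for 6 weeks against 1 week and 0% for 6 weeks against 3 weeks in males, and 0.218%, 1.03% and 0% in females. For 6 weeks against 3 weeks edgeR also called 0 genes, while 1072 genes in males and 2572 in females had an unadjusted p under 0.05. For 3 weeks against 1 week 2710 genes in males and 1699 in females had such a p, and for 6 weeks against 1 week 2615 and 2137. No order in time among the weeks can be read from the members.

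The change against control was also compared between the sexes, by an interaction term over 16999 genes with both tables in 1 fit. None of the 9 members was called, and 0% of all genes were called for the 1-week, 3-week, 6-week and uninduced comparisons alike, while 2933, 711, 2928 and 873 genes had an unadjusted p under 0.05. At 6 weeks the change in *Jak2* was 0.64 ± 0.19 higher in females than in males (limma, adjusted p = 0.135) and that in *Jak3* was -1.2 ± 0.36 (adjusted p = 0.135). The change in *Jak1* was 0.47 ± 0.17 higher in females (adjusted p = 0.178). These 3 members, and no other in any of the 4 comparisons, had an unadjusted p under 0.05. All 3 differences rest in part on the libraries that stand apart. Without those they were 0.31 ± 0.20 for *Jak2*, -0.32 ± 0.24 for *Jak3* and 0.24 ± 0.18 for *Jak1* (limma, adjusted p = 0.999971 for each), with 1 female library left at 6 weeks, and none of the 9 members was called in any of the 4 comparisons. A member called in 1 sex alone is therefore not shown to differ between the sexes.

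Other genes of the pathway were read from lists by role, with counts among the tested members and the median log2 change. The counts stand against the shares of all genes called at 6 weeks, 16.2% higher and 10.9% lower in males and 21.7% higher and 21% lower in females, so that 1 or 2 genes called in a direction in a list of 4 to 9 are near the background. Of 6 receptors of the interleukin 6 family, 5 rose and 0 fell at 6 weeks in males (median 0.79) and 5 rose and 1 fell in females (median 1.08). *Osmr*, the oncostatin M receptor, rose by 2.00 in males and 1.89 in females, *Il6st* by 0.53 and 1.2 and *Il11ra1* by 0.74 and 0.71. The leukemia inhibitory factor receptor *Lifr* fell by 0.59 in females, and in males its change was -0.24 (limma, adjusted p = 0.287). Of 6 receptors that work with *Jak3* through the common gamma chain, 3 rose and 1 fell in males at 6 weeks (median 0.89) and 4 rose and 1 fell in females (median 1.23), with *Il4ra* at 2.48 and 2.64 and the chain itself, *Il2rg*, at 1.27 and 1.08. *Il15ra* fell by 0.57 and 1.04. Of 6 receptors for interferons and interleukin 10, 2 rose and 2 fell in males (median 0.26) and 3 rose and 1 fell in females (median 0.30). *Il10ra*, which is found on leukocytes, rose by 1.5 and 2.04.

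Among the inhibitors, of 8 SOCS and CISH genes, 2 rose and 0 fell at 6 weeks in males (median -0.05) and 2 rose and 2 fell in females (median 0.09). *Socs3*, which blocks gp130 and JAK activity, rose by 4.65 and 4.56, and *Socs1* by 1.10 and 1.75. Against control, *Socs3* was also higher in uninduced hearts, by 2.01 in males and 2.05 in females. *Socs2* fell by 0.58 and *Cish*, an inhibitor induced by STAT5, by 0.54 in females, while their changes in males were -0.06 and -0.40, not called. Of 9 PIAS, phosphatase and other inhibitors, 2 rose and 2 fell in males (median 0.21) and 3 rose and 3 fell in females (median -0.06). The phosphatase *Ptpn6*, abundant in blood cells, rose by 1.69 and 2.18, and *Ptpn11*, which docks on gp130, fell by 0.63 and 0.47. Of 4 adaptor genes that bind JAKs, 1 rose in each sex, *Sh2b2*, by 1.79 and 1.89 (medians 0.02 and 0.04).

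The target genes were read by the STAT that the lists assign them to, and no STAT binding was measured. The lists were chosen with earlier results of these data known, so the counts do not test the activity of a STAT. Some genes stand in more than 1 list. *Pim1* is a target of both STAT3 and STAT5 there. *Socs3*, *Socs2* and *Cish* are also among the inhibitors, and *Il4ra* is also among the common gamma chain receptors. All 12 STAT3 targets rose at each week in both sexes, with medians of 3.30, 2.43 and 2.42 in males and 3.16, 2.65 and 2.61 in females at 1, 3 and 6 weeks. In uninduced hearts 4 of the 12 were higher in males (median 1.00) and 5 in females (median 1.13), *Serpina3n* by 4.78 and 5.42. Of all genes 0.561% and 2.41% were called higher there. Of 6 STAT5 targets, 3 rose and 0 fell at 6 weeks in males (median 0.37) and 3 rose and 3 fell in females (median -0.01). *Igf1* rose by 1.72 and 1.5, and *Bcl2l1* fell by 0.94 in females, where its change in males was -0.03. Of 11 STAT2 and IRF9 targets, 1 rose and 1 fell at 6 weeks in males (median -0.03) and 3 rose and 1 fell in females (median 0.05). *Mx1* rose by 1.21 and 1.04, and *Rsad2* fell by 1.62 and 1.5. At 1 week 3 of these 11 rose in males and 6 in females, where 18.9% and 15.3% of all genes were called higher. Of the STAT6 targets, 3 of 6 rose in males (median 0.93) and 3 of 5 in females (median 1.77), among them *Mrc1*, a macrophage surface receptor, by 1.45 and 1.93.

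**Figure D5:**
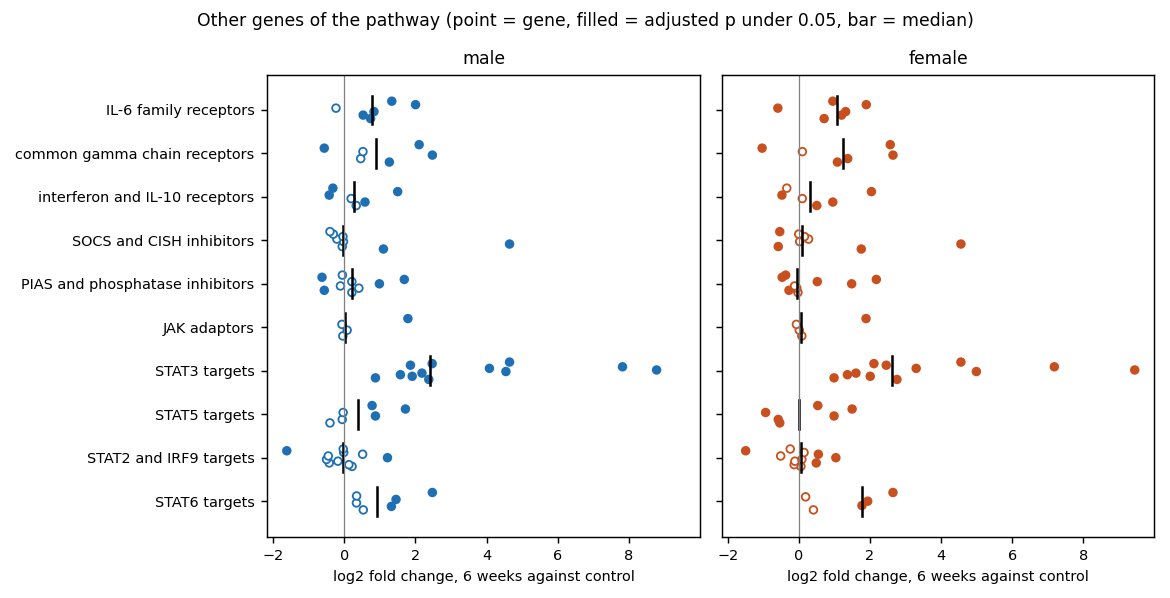
Log2 fold change at 6 weeks against control of the other genes of the pathway, by list, in males (left) and females (right), with 1 point for each tested gene, filled at an adjusted p under 0.05, and a bar at the median of the list. All 12 STAT3 targets lie to the right of 0 in both sexes, with medians of 2.42 and 2.61. The lists were chosen with earlier results of these data known.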

How the data were processed

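PolyA RNA was sequenced from the hearts of 40 mice (left ventricular tissue in the paper, 60-base paired-end reads). The authors aligned reads to GRCm39 with STAR and counted them with featureCounts. The deposited signal is CPM, in 1 table for each sex. Columns sum to 817395 to 1196278 rather than to 1 fixed total, and 100% of values lie within 0.001 of a whole read once a factor for each library is divided out, so the signal is read counts divided by that factor. Reads were recovered in this way for edgeR and DESeq2. Groups came from labels, and 38 libraries entered, since in 2 male libraries the title and the description disagreed. Tables were scaled separately, so levels were compared within a sex.

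Genes with at least 0.5 CPM in 3 libraries were tested with limma 3.58.1 in R 4.3.3 (mean-variance trend, all groups of a sex in 1 fit), with Benjamini-Hochberg adjustment over all of them. edgeR 4.0.16, DESeq2 1.42.0, other pseudocounts, filters and scalings, a replicate block and single libraries left out were alternatives. The fits were tested on simulated data. Levels per kilobase used the union of GENCODE exons. All members and the named genes of fixed pathway lists are described. Members and lists were chosen with earlier results of these data known. P-values measure the spread between libraries.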

Additional observations from a re-analysis of the deposited data

Results flagged for a closer look

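A library far from the other 3 of its group was found 4 times in 72 groups of 4. Chance gives about 1 in 20 groups, so this count is near the chance number. *Jak3* in female 1-week replicate 2 was 24.5 CPM, against 51.1 to 54.4 CPM in the others, and *Stat2* in female uninduced replicate 4 was 17.6 CPM, against 31.3 to 34 CPM. *Jak1* in that same uninduced library was 165 CPM, against 107 to 112 CPM. Both libraries are among the 5 female libraries with little nuclear RNA. *Jak1* in male 1-week replicate 2 was 114 CPM, against 127 to 129 CPM.

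In the 2 male libraries with conflicting labels, 4 member values lay above the highest male control. The library titled as a control, whose description names the 6-week group, had *Jak3* at 53.2 CPM (controls 27.9 to 32.4 CPM), *Stat3* at 255 CPM (controls 115 to 164 CPM), *Jak2* at 33.1 CPM (controls 25 to 27.5 CPM) and *Il11* at 511 CPM. The library titled as 6 weeks, whose description names the control group, had *Stat5a* at 28.8 CPM (controls 24.8 to 28.3 CPM) and *Il11* at 0.597 CPM. Neither was assigned to a group.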

How the results depend on the processing

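The number of members called against control kept within 1.5 times in most settings. The share of all genes called in each setting is not given here. These counts therefore do not show whether the members moved more than other genes. A minimum log2 change of 1 left 1 member in males at 6 weeks and 0 in males at 1 and 3 weeks and in all female comparisons, uninduced included. Scaling to total reads gave 5 in males at 3 weeks, 1 in uninduced males, and 6, 7 and 6 in females at 1, 3 and 6 weeks. It moved the median of all genes up by 0.13 to 0.34 and changed the sign of 25 of 72 member results, 19 of them called under neither scaling. The other 6, all in females, were *Stat5b* (0.083 at 1 week and 0.14 at 6 weeks), *Jak1* (0.31) and *Stat5a* (0.35) at 3 weeks, and *Stat5a* (0.35) and *Stat6* (0.36) at 6 weeks. Relative to the shifted median *Stat5b* was -0.20 at both weeks. Without the libraries that stand apart 5 members were called in females at 1 week, 2 in uninduced females and 1 in uninduced males, and *Jak3* in females at 6 weeks turned to 0.58. With nuclear RNA as a covariate 5, 5 and 2 were called in females at 1 week, at 6 weeks and uninduced and 1 in uninduced males, and that *Jak3* change turned to 0.49. With only the 2 groups compared, 0 were called in uninduced females and 1 in uninduced males. DESeq2 called 1 in uninduced males. The causes were not tested. Leaving out single libraries gave 2 to 3 members in males at 1 and 6 weeks, 0 to 1 in uninduced males, and 1 to 3 and 2 to 3 in females at 1 and 6 weeks.

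Replicate numbers did not pair the libraries: residuals of same-numbered libraries correlated with a mean r of 0.0132 over 33 pairs in males and 0.0255 over 40 pairs in females. With the replicate block 1 member was called in uninduced males and 2 in females at 1 week, and the other counts against control were as without it. For single members against control, over all alternatives, 38 results gained a call and 49 lost one. The sign changed in 79 of 1467, of which 8 were called in either fit (all given above) and 71 in neither, 34 of these with a single library left out and 6 without the libraries that stand apart. Depth did not limit the members, which held at least 290 reads in every grouped library.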

Other observations

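The genes whose pattern over libraries was most like that of *Stat3*, among 16627 genes tested in both sexes and by the lower of the Pearson r in 18 male and in 20 female libraries on the log2 scale, were *Mogs* (0.92 and 0.91), *Bace1* (0.91 and 0.91) and *Atp9a* (0.90 and 0.88). For *Stat5b* they were *Trak1* (0.92 and 0.91), *Mfn2* (0.88 and 0.93) and *Mfhas1* (0.88 and 0.89). The libraries span the groups, so these values include the group differences.

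Markers of other cells moved in induced hearts as well. At 6 weeks 4 of 5 fibroblast markers rose in males (median log2 change 1.71) and 5 of 5 in females (median 2.44). Of 5 endothelial markers 3 fell in males (median -0.51) and 4 in females (median -0.65), and of 5 cardiomyocyte markers 1 fell in each sex, *Ryr2*, by 0.90 and 0.63. In males the summed level of the cardiomyocyte markers was 44720 to 54270 CPM in controls and 26760 to 35970 CPM at 6 weeks. The male 1-week and 3-week ranges were 26140 to 46600 CPM and 33620 to 44450 CPM. In females the 6-week range, 25530 to 34050 CPM, overlapped that of controls, 27850 to 44440 CPM. Summed mural cell markers were 792.6 to 958.5 CPM in male controls and 431.4 to 503.5 CPM at 6 weeks. The female ranges were 750.9 to 938 CPM and 527.1 to 680.2 CPM.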
